A study of Mus musculus with 6 samples.

Results

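The genes described here are 9 genes of peroxisomal fatty acid oxidation, Ehhadh, Hsd17b4, Acaa1a, Acaa1b, Abcd2, Abcd3, Pex11a, Ech1 and Scp2, taken by symbol from a table of 29072 genes. All 9 were found, each with a RefSeq row, and all 9 passed the filter on low values, a group mean of 1 RPKM or more for knockout or wildtype (RPKM counts reads per kilobase of transcript, normalised to sequencing depth). Libraries were built from total RNA of interscapular brown adipose tissue, a fat depot that makes heat. Of the 6 libraries, 3 came from UCP1(-/-) mice (knockout) and 3 from wildtype mice, all on the C57BL/6J strain. Age, sex and housing temperature of the animals, and whether each library is a separate animal, are not stated in the labels. The p-values therefore rest on the spread between libraries, which may be technical.

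Peroxisomes shorten fatty acids that mitochondria handle poorly, above all very long, branched and dicarboxylic chains. The acyl-CoA enters through ABC transporters, an oxidase passes its electrons to oxygen, a bifunctional enzyme hydrates and dehydrogenates the chain, and a thiolase releases acetyl-CoA or propionyl-CoA. The shortened chain leaves for mitochondria. In rodents many of these genes are targets of PPAR alpha, a nuclear receptor for fatty acids, and brown fat is known for a rise in peroxisomes in the cold.

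Of the 9 genes, 1 rose in knockout brown fat, none fell and 8 did not pass (limma on log2(RPKM + 1), Benjamini-Hochberg adjustment across all tested genes, threshold 0.05). The gene that rose was Acaa1b, a thiolase, 1.76-fold higher in knockout. Over all 11562 tested genes 7.67% were called, 6.95% higher and 0.718% lower, so 1 call among 9 genes (11.1%) lies near the background. With no adjustment, 1 of the 9 genes, again Acaa1b, had a p under 0.05, against 23.5% of all tested genes. Of the 9 genes 7 (77.8%) had a log2 change above 0, against 68.5% of all tested genes. The median log2 change of the 9 genes was 0.13 and that of all tested genes 0.08. Median-of-ratios scaling moved these medians to 0.03 and -0.01, with 5 of the 9 genes above 0 and 4 below, and called 494 genes higher and 152 lower in place of 804 and 83. The call on Acaa1b was lost in each of the 14 alternatives run, at adjusted p of 0.0512 to 0.302, while its log2 change stayed between 0.53 and 0.86. In whole tissue, fewer cells of a type and less RNA per cell cannot be told apart.

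The targeted gene was lower where the labels place the deletion: Ucp1, the uncoupling protein of brown fat mitochondria, stood at 375, 389 and 372 RPKM in knockout replicates 1, 2 and 3 and at 3096, 1714 and 3151 RPKM in wildtype replicates 1, 2 and 3. The libraries held 15800000 to 18100000 reads, as the spacing of low values implies. The lowest value of any of the 9 genes, Abcd2 in wildtype replicate 1, rests on about 130 reads per kilobase of transcript. The 6 adipocyte markers summed to 11010 to 12768 RPKM over all libraries. The 5 hepatocyte markers, including Alb, each had a mean under 1 RPKM and summed to 0.354 to 1.26 RPKM. All 20 skeletal muscle markers rose, with sums of 1916 to 2180 RPKM in knockout and 68.9 to 317 RPKM in wildtype. Myh2, Neb, Ttn and Ryr1 among them passed the filter through their knockout level alone. Of 9 macrophage markers 1 rose, with sums of 74.2 to 101.5 RPKM in knockout and 46.9 to 73.5 RPKM in wildtype. Of 6 endothelial markers none passed, with sums of 131 to 150.3 RPKM in knockout and 130 to 144 RPKM in wildtype. Of 8 brown adipocyte markers 1 rose and 2 fell, Ucp1 included.

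The levels of the 9 genes spanned a wide range on the RPKM scale, which is per length. Ech1 was the most abundant, with a mean of 717 RPKM over all 6 libraries, followed by Abcd3 at 120.4 RPKM, Hsd17b4 at 84.2 RPKM and Scp2 at 81.2 RPKM. Ehhadh stood at 53.4 RPKM, Pex11a at 29.6 RPKM, Acaa1a at 25.5 RPKM, Acaa1b at 16.2 RPKM and Abcd2 at 12.4 RPKM. The ranges over 6 libraries overlapped between the neighbours Hsd17b4 and Scp2, between Pex11a and Acaa1a, between Acaa1a and Acaa1b and between Acaa1b and Abcd2. The other neighbours in this order did not overlap.

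**Figure D1:**
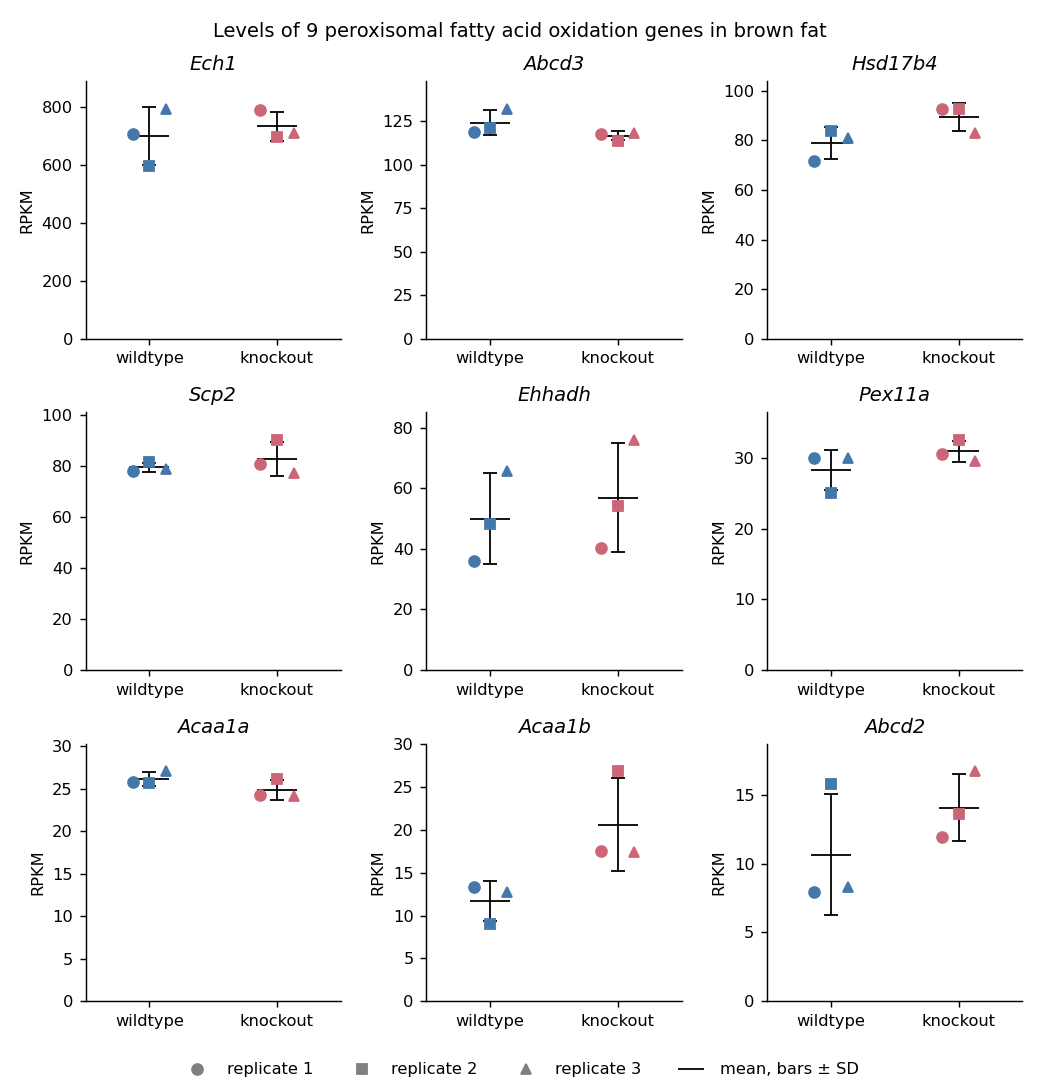
Levels of the 9 genes in RPKM, in order of their mean, with a point per library (marker shape gives the replicate), the group mean as a line and the SD over 3 libraries as bars; each axis starts at 0. The knockout and wildtype points are apart for Acaa1b, with knockout higher, and by a small margin for Abcd3, with knockout lower, and overlap for the other 7 genes.

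Abcd2 and Abcd3 encode ABC transporters of the peroxisomal membrane that work as dimers and bring fatty acyl-CoA into the organelle. Abcd3, an abundant peroxisomal membrane protein that carries long, branched and dicarboxylic chains, stood at 118, 114 and 118 RPKM in knockout replicates 1, 2 and 3 and at 119, 120.9 and 132 RPKM in wildtype replicates 1, 2 and 3. Every knockout value lay below every wildtype value, yet the gap between the groups was under 1 RPKM. The log2 change of Abcd3 was -0.09 (SE 0.07, 95% interval -0.25 to 0.08, limma adjusted p = 0.515). These values are of the RefSeq row. Over its 6 transcript rows the log2 change ran from -0.09 to 0.11, so its sign depends on the row. In 3 of these rows the groups did not overlap, against 25.5% of all tested rows. Groups that do not overlap are common here: 29.3% of tested genes had them, 24.2% with knockout higher and 5.11% with knockout lower. Of the 9 genes 2 (22.2%) had them, Acaa1b with knockout higher and Abcd3 with knockout lower.

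Abcd2, which prefers very long-chain and polyunsaturated acyl-CoA, stood at 11.9, 13.6 and 16.7 RPKM in knockout and at 7.94, 15.8 and 8.30 RPKM in wildtype replicates 1, 2 and 3. Wildtype replicate 2 thus lay among the knockout libraries, and the other wildtype libraries lay below all of them. The log2 change of Abcd2 was 0.42 (SE 0.23, 95% interval -0.11 to 0.95, limma adjusted p = 0.31). Without wildtype replicate 2 the log2 change was 0.71 and the adjusted p = 0.0152, and over the alternatives the adjusted p ran from 0.0152 to 0.595. All 8 deposited transcript rows of Abcd2 gave like changes, from 0.37 to 0.44.

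Markers of white adipocytes shared a part of the pattern of Abcd2. Their sum over 4 genes was 96.0, 94.8 and 163 RPKM in knockout replicates 1, 2 and 3 and 65.6, 99.9 and 31.7 RPKM in wildtype replicates 1, 2 and 3, so the highest library was knockout replicate 3 for the sum and for Abcd2, and wildtype replicate 2 was the highest wildtype library for both. The order of the other libraries differed. Wildtype replicate 1 lay above wildtype replicate 3 for the sum and below it for Abcd2. Knockout replicate 1 lay just above knockout replicate 2 for the sum and below it for Abcd2. Lep, the gene of leptin, held 3.91, 15.96 and 1.15 RPKM in wildtype replicates 1, 2 and 3 and 14.9, 11.1 and 7.25 RPKM in knockout. Over knockout replicates 1 to 3 Lep thus fell while Abcd2 rose. Of the 4 markers, Agt rose (angiotensinogen, 0.546 ± 0.470 to 2.39 ± 0.994 RPKM, SD, n = 3 each) and 3 did not pass, and none was at 0. Agt passed the filter on low values through its knockout level alone. Their part in the values of Abcd2 was not tested. The ratio of Abcd2 to Abcd3 was 0.101, 0.120 and 0.142 in knockout and 0.0668, 0.13 and 0.0628 in wildtype. This ratio did not separate the groups (exact permutation test, two-sided, p = 0.3, n = 3 each, where the smallest p the design allows is 0.1).

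Between the oxidase and the thiolase, bifunctional enzymes carry out the middle steps of the cycle. Ehhadh encodes the L-bifunctional enzyme, which takes part in the breakdown of dicarboxylic acids and is a classic PPAR alpha target in rodent liver. It stood at 40.4, 54.2 and 76.0 RPKM in knockout replicates 1, 2 and 3 and at 35.95, 48.3 and 65.8 RPKM in wildtype replicates 1, 2 and 3. The spread within each group was wide, and the groups overlapped over most of their range. In both groups the values rose in the order of the replicate numbers. The log2 change of Ehhadh was 0.18 (SE 0.25, 95% interval -0.40 to 0.76, limma adjusted p = 0.724). With the replicate number as a further factor in the model, its limma adjusted p was 0.243. Hsd17b4 encodes the D-bifunctional enzyme, which handles straight and branched chains and the bile acid intermediates. It stood at 92.8, 92.8 and 82.8 RPKM in knockout and at 71.9, 83.9 and 80.96 RPKM in wildtype. The lowest knockout library lay just below the highest wildtype library. The log2 change of Hsd17b4 was 0.18 (SE 0.09, 95% interval -0.02 to 0.38, limma adjusted p = 0.251), the smallest adjusted p among the 8 genes that did not pass.

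Thiolases close the cycle, and mice carry a pair of close copies of the straight-chain enzyme, Acaa1a and Acaa1b. Acaa1b stood at 17.6, 26.9 and 17.4 RPKM in knockout replicates 1, 2 and 3 and at 13.3, 9.04 and 12.8 RPKM in wildtype replicates 1, 2 and 3. All knockout libraries lay above all wildtype libraries, and knockout replicate 2 and wildtype replicate 2 lay farthest apart. The mean of Acaa1b was 11.7 ± 2.33 RPKM over the wildtype libraries and 20.6 ± 5.43 RPKM over the knockout libraries (SD, n = 3 each). Its log2 change was 0.75 (SE 0.19, 95% interval 0.33 to 1.18, limma adjusted p = 0.0473). Without wildtype replicate 2 the log2 change was 0.59 (adjusted p = 0.0862), and without knockout replicate 2 it was 0.56 (adjusted p = 0.122). The muscle markers, which rose in the same knockout libraries, summed to 278, 317 and 68.9 RPKM in wildtype replicates 1, 2 and 3 and to 1916 to 2180 RPKM in knockout. Their part in the rise was not tested.

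Acaa1a did not pass, at 24.2, 26.2 and 24.1 RPKM in the knockout libraries and 25.8, 25.6 and 27.0 RPKM in the wildtype libraries. Its groups overlapped, and its log2 change was -0.07 (SE 0.07, 95% interval -0.23 to 0.09, limma adjusted p = 0.576). The ratio of Acaa1b to Acaa1a was 0.726, 1.03 and 0.722 in knockout replicates 1, 2 and 3 and 0.518, 0.353 and 0.472 in wildtype replicates 1, 2 and 3. Put as a share, Acaa1b made up 42.1%, 50.7% and 41.9% of the summed RPKM of the pair in knockout and 34.1%, 26.1% and 32.0% in wildtype. Every knockout ratio lay above every wildtype ratio, with a difference between the group means of 0.88 on the log2 scale (exact permutation test, two-sided, p = 0.1, n = 3 each, the smallest p the design allows). The pair shares sequence: the RefSeq-matched transcripts were 91.0% identical over 1639 aligned bases, and 35.5% of the 50-base windows of the Acaa1b transcript also occur in Acaa1a. With windows shared with any other gene the figure was 46.2% for Acaa1b and 35.1% for Acaa1a. How reads that match both genes were assigned is not stated in the labels or headers, so the levels of both are uncertain.

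**Figure D2:**
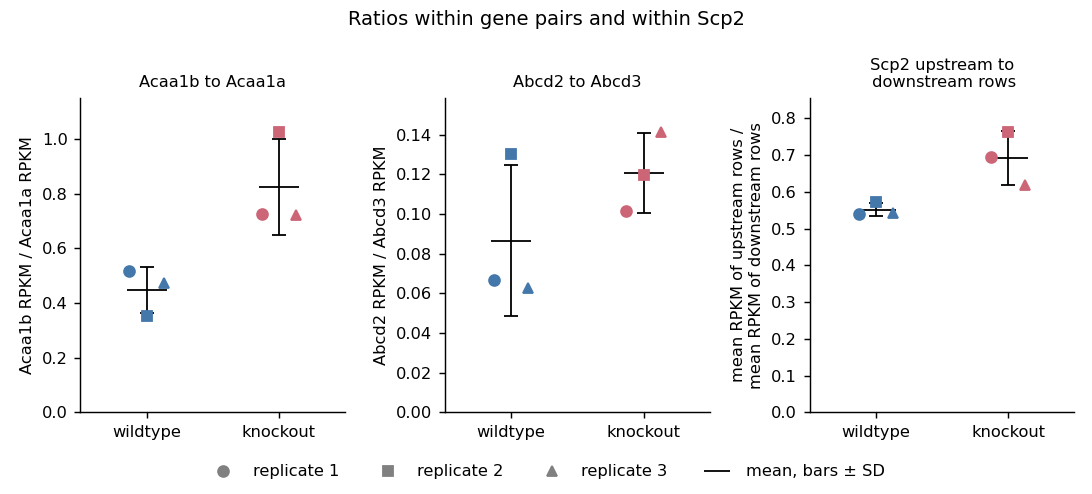
Ratios per library, with points for the 3 replicates of each group, the mean as a line and the SD as bars: Acaa1b to Acaa1a, Abcd2 to Abcd3, and the mean of the upstream over the mean of the downstream transcript rows of Scp2. The knockout points lie above all wildtype points in the thiolase and Scp2 panels, and wildtype replicate 2 lies among the knockout points in the transporter panel. The Scp2 rows were split after their values were seen.

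The start regions of the thiolase pair are shown because Acaa1b passed and its close copy did not, and that of Scp2 because its deposited rows differ along the gene. The sequences are RefSeq promoter windows of 300 bases (250 before and 50 after the start) on build GRCm38.p6, where 7 of the 9 genes matched by symbol. Capitals mark CCAAT, a common promoter box, and AGGTCA, the half-site of nuclear receptors such as PPAR alpha, on either strand (as ATTGG and TGACCT on the other).
Acaa1b, chr9:119157044-119157343, minus strand: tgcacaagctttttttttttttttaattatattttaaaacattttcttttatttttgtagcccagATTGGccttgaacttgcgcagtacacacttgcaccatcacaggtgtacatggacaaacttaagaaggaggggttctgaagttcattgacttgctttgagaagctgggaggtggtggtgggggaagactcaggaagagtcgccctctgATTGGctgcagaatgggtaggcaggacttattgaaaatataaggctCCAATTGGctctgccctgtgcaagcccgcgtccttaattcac
Acaa1a, chr9:119341044-119341343, plus strand: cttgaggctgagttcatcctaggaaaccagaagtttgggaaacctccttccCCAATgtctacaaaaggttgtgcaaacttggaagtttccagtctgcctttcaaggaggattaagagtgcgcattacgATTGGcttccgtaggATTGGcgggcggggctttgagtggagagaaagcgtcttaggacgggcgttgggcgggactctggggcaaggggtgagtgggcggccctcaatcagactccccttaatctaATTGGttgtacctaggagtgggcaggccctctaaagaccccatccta
Scp2, chr4:108118498-108118797, minus strand: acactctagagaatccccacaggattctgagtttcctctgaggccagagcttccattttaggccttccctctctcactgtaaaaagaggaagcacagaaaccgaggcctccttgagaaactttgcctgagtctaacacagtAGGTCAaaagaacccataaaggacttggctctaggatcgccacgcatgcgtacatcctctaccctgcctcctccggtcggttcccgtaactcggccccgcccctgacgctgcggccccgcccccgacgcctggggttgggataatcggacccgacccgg

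Both thiolase windows held 4 matches to CCAAT, of which a pair in Acaa1b overlaps as the run CCAATTGG, and neither window held AGGTCA. Among 32851 promoter windows of this length, 37.4% held CCAAT and 16.3% held AGGTCA. The window of Scp2 held 1 AGGTCA and no CCAAT. Of the 7 genes searched, 3 held CCAAT (Acaa1a, Acaa1b and Ehhadh) and 1 held AGGTCA. The direct repeat of AGGTCA with 1 base between the copies was in none of the 7 and in 0.0396% of all windows. A match is a description of the letters and not a shown binding site.

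Scp2 encodes sterol carrier protein X, a thiolase for branched chains and bile acid intermediates, and from a start farther downstream the short sterol carrier protein 2, a lipid carrier. Its RefSeq row stood at 80.8, 90.3 and 77.4 RPKM in knockout and at 78.2, 81.5 and 78.9 RPKM in wildtype. The groups overlapped, and the log2 change of Scp2 was 0.05 (SE 0.08, 95% interval -0.12 to 0.23, limma adjusted p = 0.722). The deposited rows of this gene did not all give the same picture. In the GENCODE M21 annotation, 4 Ensembl rows lie wholly in the upstream part of the gene and 3 wholly in the downstream part, which holds the coding region of the short protein. These sets were chosen after their values were seen.

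The mean of the 4 upstream Scp2 rows was 50.7, 61.0 and 44.9 RPKM in knockout replicates 1, 2 and 3 and 42.3, 42.4 and 42.4 RPKM in wildtype replicates 1, 2 and 3. The mean of the 3 downstream rows was 72.9, 79.8 and 72.6 RPKM in knockout and 78.1, 74.2 and 78.2 RPKM in wildtype. For the upstream part all knockout libraries lay above all wildtype libraries, and for the downstream part the groups overlapped. The ratio of upstream to downstream was 0.696, 0.764 and 0.619 in knockout and 0.541, 0.572 and 0.542 in wildtype, a difference of 0.32 on the log2 scale (exact permutation test, two-sided, p = 0.1, n = 3 each, the smallest p the design allows). Because the rows were split after their values were seen, this p does not count as support for a difference between the groups. The 4 upstream rows had log2 changes of 0.21 to 0.37 and the 3 downstream rows of -0.05 to -0.01. None of these rows passed a limma fit over all 82579 tested rows. The upstream row with the smallest p, a coding transcript, had an adjusted p = 0.15. The downstream rows share 62.4% to 74.3% of their 50-base windows with the pseudogene Scp2-ps2 and the predicted gene Gm47162, and the upstream rows share 0%, so the downstream level is uncertain.

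**Figure D3:**
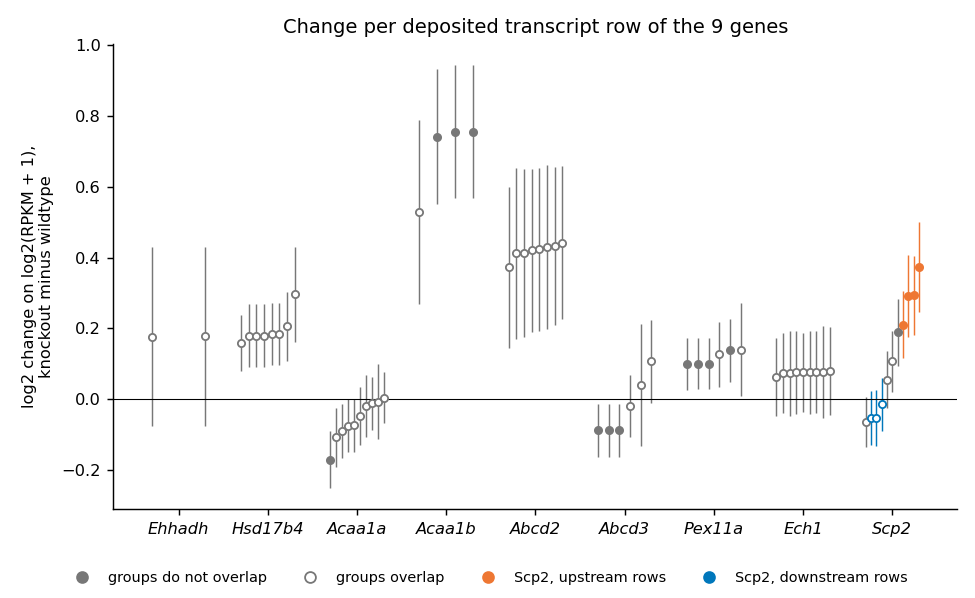
Log2 change (knockout minus wildtype, on log2(RPKM + 1)) of each of the 64 tested transcript rows of the 9 genes, with moderated standard errors as bars; filled points are rows whose groups do not overlap, orange points the upstream and blue points the downstream rows of Scp2. The rows of Acaa1b lie between 0.53 and 0.75, and the rows of Scp2 run from -0.06 to 0.37.

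Over all 9 genes the table holds 67 transcript rows, of which 64 were tested and none passed, against 4.36% of all tested rows. Of the 64 rows 12 were higher in every knockout library than in any wildtype library (18.8%), against 21.2% of all tested rows. The rows of a gene share reads and are not independent. The rows of Acaa1b came closest to the threshold, at an adjusted p = 0.0623 for the RefSeq row.

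Ech1 encodes the dienoyl-CoA isomerase needed for unsaturated chains, which is found in mitochondria as well as in peroxisomes. It stood at 792, 697 and 713 RPKM in knockout replicates 1, 2 and 3 and at 708, 596 and 796 RPKM in wildtype replicates 1, 2 and 3. The highest and the lowest library were both wildtype, and the log2 change was 0.08 (SE 0.12, 95% interval -0.19 to 0.34, limma adjusted p = 0.741). Pex11a encodes a membrane protein that elongates and divides peroxisomes and is a PPAR alpha target in mice. It stood at 30.6, 32.6 and 29.7 RPKM in knockout and at 30.0, 25.02 and 29.9 RPKM in wildtype. In this RefSeq row the groups overlapped by a small margin, with wildtype replicate 2 the lowest library. The log2 change of Pex11a was 0.13 (SE 0.09, 95% interval -0.08 to 0.33, limma adjusted p = 0.432). Its 6 transcript rows had log2 changes of 0.10 to 0.14, and none passed. In 4 of them every knockout library lay above every wildtype library, as in 21.2% of all tested rows.

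Knockout replicate 2 was the highest library for 3 of the 9 genes, Acaa1b, Pex11a and Scp2. Wildtype replicate 2, whose Ucp1 level was the lowest of its group, was the lowest library for 3, Acaa1b, Pex11a and Ech1. Some genes outside the 9, such as Cat and Pex14, also had knockout replicate 2 highest and wildtype replicate 2 lowest. The share over all tested genes was not counted, so these counts show nothing particular to the 9 genes. Of all pairs among the 9 genes, Acaa1b and Pex11a had the most alike standardised profiles over the 6 libraries, with a root mean squared distance of 0.454 SD. The tested genes outside the 9 whose profile was nearest to their mean were Usp32 (distance 0.517 SD), Utrn (0.519 SD) and Hipk2 (0.523 SD), none of which passed between genotypes.

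Other genes of the peroxisome mostly did not pass. Of 23 tested genes of peroxisomal beta oxidation outside the 9, 2 rose, none fell and 21 did not pass, with a median log2 change of 0.07. Both that rose are acyl-CoA thioesterases at low level: Acot6 went from 0.899 ± 0.106 to 1.67 ± 0.218 RPKM and Acot12 from 0.269 ± 0.0759 to 1.07 ± 0.396 RPKM (SD, n = 3 each). Their log2 changes were 0.49 for Acot6 (limma adjusted p = 0.0228) and 0.69 for Acot12 (limma adjusted p = 0.0303). Both genes passed the filter through their knockout level alone, so their rise does not count as support for the list. The call of Acot6 was lost in 4 of 14 alternatives, without knockout replicate 1 or 2 or wildtype replicate 1 or 2 (adjusted p of 0.052 to 0.0908). The call of Acot12 was lost in 4 of the 10 alternatives that tested it, with no filter or without any 1 of the wildtype replicates (0.0523 to 0.0772). In the other 4 of 14, Acot12 was not tested: without knockout replicate 1 or 2, with the Ensembl row and in limma-voom. The list thus held 0 calls without knockout replicate 1 or 2 or wildtype replicate 1 or 2.

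None of 8 tested genes of alpha oxidation and ether lipid synthesis passed (median log2 change 0.16). The smallest p-values there belonged to Agps, an enzyme of ether lipid synthesis, at 5.30 ± 0.311 RPKM over knockout and 4.46 ± 0.417 RPKM over wildtype libraries, and to Hacl1, a lyase of alpha oxidation, at 14.7 ± 2.81 and 11.5 ± 1.49 RPKM (SD, n = 3 each). None of 18 genes of peroxisome biogenesis and division passed (median 0.04). Pex16, which places membrane proteins, stood at 41.9 ± 2.13 and 34.9 ± 2.01 RPKM and Pex14, part of the import pore, at 44.4 ± 2.36 and 37.97 ± 3.29 RPKM in knockout and wildtype. None of 14 other peroxisomal proteins passed (median -0.02). Catalase (Cat), which clears the hydrogen peroxide made by the oxidases, stood at 287 ± 25.6 and 240.2 ± 10.6 RPKM, and the membrane channel Pxmp2 at 17.1 ± 1.67 and 21.6 ± 2.89 RPKM.

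Of 13 regulators around the PPAR receptors, 3 rose and 10 did not pass (median log2 change 0.16). Ppara, which encodes PPAR alpha itself, stood at 65.6, 75.4 and 55.3 RPKM in knockout replicates 1, 2 and 3 and at 37.9, 46.8 and 45.8 RPKM in wildtype replicates 1, 2 and 3, and rose by 0.57 on the log2 scale (SE 0.13, limma adjusted p = 0.03). The corepressor Ncor1 rose from 13.8 ± 0.956 to 17.8 ± 0.802 RPKM and the coactivator Ncoa1 from 8.11 ± 0.544 to 10.5 ± 0.753 RPKM (SD, n = 3 each), at limma adjusted p of 0.0325 and 0.0443. All 3 calls were lost after median-of-ratios scaling, and each was also lost without knockout replicate 1, knockout replicate 2 or wildtype replicate 1. Over all alternatives the adjusted p ran from 0.0191 to 0.105 for Ppara, from 0.0255 to 0.427 for Ncor1 and from 0.0461 to 0.163 for Ncoa1. Ppara lost its call in 7 of 14 alternatives, Ncor1 in 9 of 14 and Ncoa1 in 12 of 13. Of 12 tested PPAR alpha targets outside the peroxisome, 2 rose, 1 fell and 9 did not pass (median 0.09). Vnn1, a pantetheinase, rose from 0.610 ± 0.293 to 1.48 ± 0.281 RPKM, and Ucp3, a mitochondrial carrier related to Ucp1, fell from 74.5 ± 8.09 to 50.2 ± 8.38 RPKM. Vnn1 passed the filter through its knockout level alone, and with no filter its adjusted p was 0.0794. The limma adjusted p were 0.0405 for Vnn1 and 0.0366 for Ucp3. The call of Vnn1 was lost in 9 of 13 alternatives (up to 0.122) and that of Ucp3 in 6 of 14 (up to 0.114). Leaving out any library except wildtype replicate 3 ended the call of Vnn1, and leaving out any except wildtype replicate 2 ended that of Ucp3.

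None of 14 mitochondrial beta oxidation genes passed (median log2 change 0.03, against 0.13 for the 9 peroxisomal genes). The smallest p-values there belonged to Etfa, which takes electrons from the acyl-CoA dehydrogenases, at 339 ± 31.7 RPKM over knockout and 297 ± 24.5 RPKM over wildtype libraries, and to Acads, the short-chain dehydrogenase, at 248 ± 19.3 and 224 ± 10.8 RPKM (SD, n = 3 each). No difference between the peroxisomal and mitochondrial lists was tested.

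**Figure D4:**
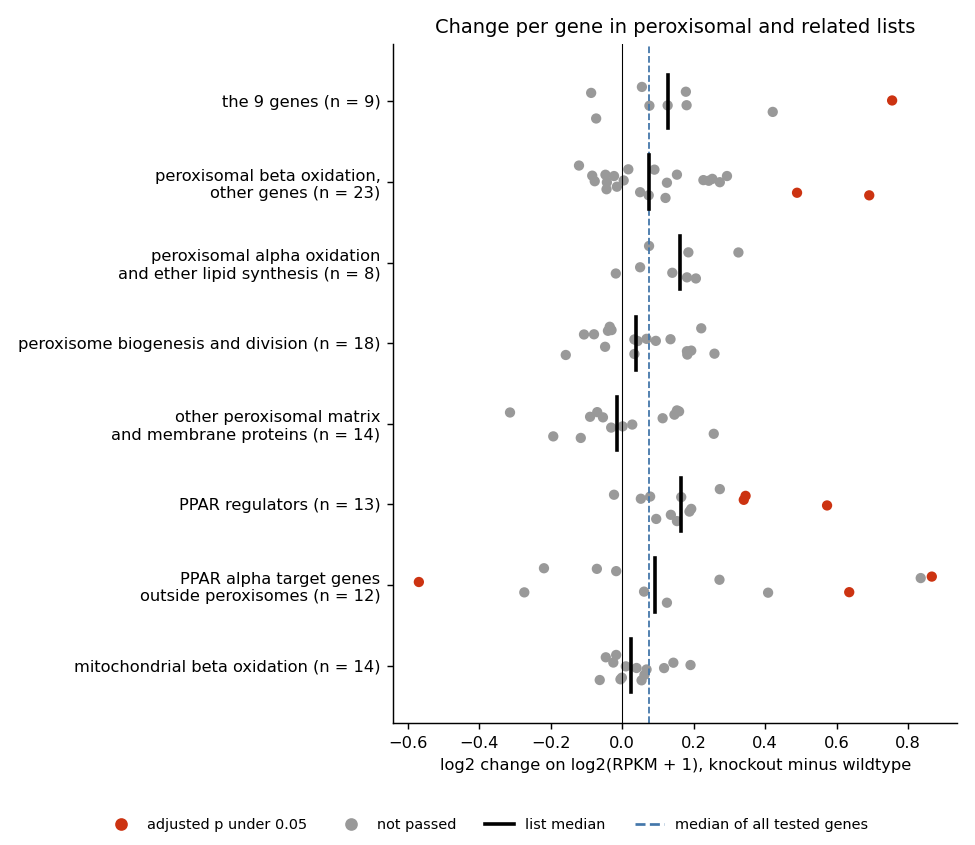
Log2 change of every tested gene in the 9 genes and the 7 other lists (knockout minus wildtype, on log2(RPKM + 1)); red points passed an adjusted p of 0.05, black bars are list medians and the dashed line is the median of all tested genes, 0.08. Most points lie between -0.2 and 0.3, with Acaa1b at 0.75 as the only red point among the 9 genes.

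**Figure D5:**
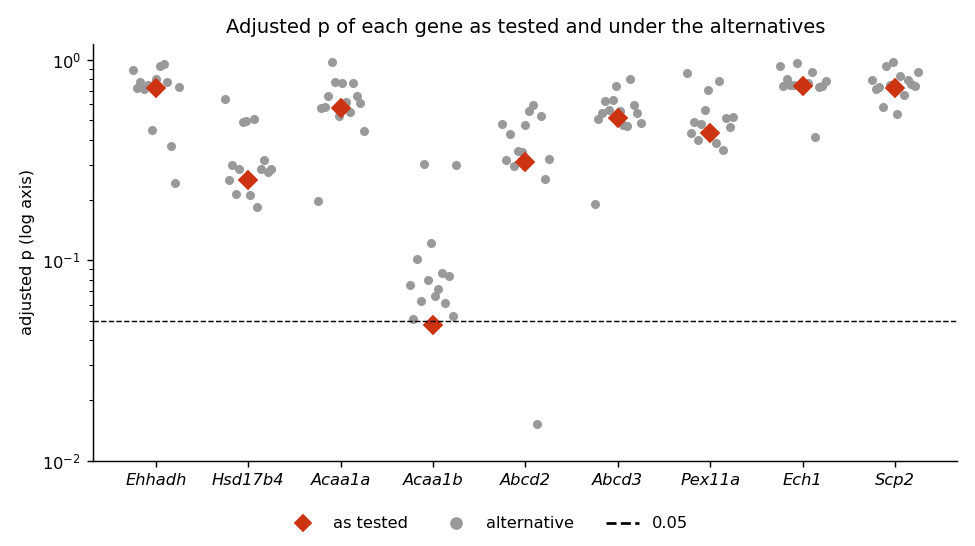
Adjusted p (log axis) of each of the 9 genes as tested (red diamonds) and under each alternative (grey points), with 0.05 as a dashed line. Acaa1b crosses the line only as tested, at 0.0473, and Abcd2 only without wildtype replicate 2, at 0.0152.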

How the data were processed

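Brown fat RNA of 3 knockout and 3 wildtype libraries was sequenced, with libraries from an Illumina TruSeq RNA kit (v2), per the labels' protocols. CASAVA and bcl2fastq are named in the submitters' processing notes, without versions. The aligner, build, annotation and handling of reads that match several genes were not given in the sources used here. RPKM values were deposited by the authors for 168326 transcript rows. Since no header states the unit, it was derived from the spacing of the values of 46002 Ensembl transcripts of known length, where 95.8% to 96.1% of low products of value and length fell on whole multiples of 1 read (tolerance 0.1 reads). From this a depth of 15800000 to 18100000 reads per library follows, so precision is similar between them.

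Rows with no gene identifier (23170) did not enter the gene fit. Each gene was represented by 1 row, RefSeq rows first and then the row with the highest mean. Values were transformed to log2(RPKM + 1), which understates changes of low genes, and genes with a group mean of 1 RPKM or more for knockout or wildtype were tested with limma 3.58.1 in R 4.3.3, with an intensity trend, genotype as the only factor, two-sided p-values and Benjamini-Hochberg adjustment over all tested genes. The test was checked on simulated data without a shift in cell mix, so the check does not show its error rate on these libraries. Ratios were tested with exact permutation tests over samples in SciPy 1.17.1. Gene lists were matched by symbol, and 1 gene by its identifier. From each pathway list the text names up to 4 called genes with the smallest adjusted p, or the 2 with the smallest p where none was called, and the 3 genes nearest to the mean profile of the 9. Some listed genes are not reported here. The members and lists were chosen with earlier results of these data known. Alternatives changed scaling, pseudocount, filter, rows per gene, model and replicates, and added a fit over all transcript rows. Strand use is not stated, so overlapping and antisense genes cannot be separated.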

Additional observations from a re-analysis of the deposited data

How the results depend on the processing

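The rise of Acaa1b was kept in direction under all 14 alternatives and passed in none. The count of called genes among the 9 was thus 0 with median-of-ratios scaling, a pseudocount of 0.1 RPKM, no filter on low values, the sum of all rows, the Ensembl row, no intensity trend, the replicate block and limma-voom on recovered reads. Leaving out each replicate in turn gave 0 to 1 calls, and the 1 call, without wildtype replicate 2, was Abcd2 and not Acaa1b. Limma-voom gave no value for Abcd2 and Ehhadh, which have no Ensembl row of known length. The only Ensembl row of Acaa1b is a retained-intron transcript. Limma-voom, like the Ensembl-row alternative, used this row, so neither tested the RefSeq row of Acaa1b. Log2 changes of genes that did not pass changed sign as follows: Ech1 to -0.022 and Scp2 to -0.042 with median-of-ratios scaling, Scp2 to -0.014 with the Ensembl row and -0.028 with limma-voom. With a replicate left out, Scp2 ran from -0.008 to 0.102 (lowest without knockout replicate 2), Ehhadh from -0.052 to 0.396 (below 0 without knockout replicate 3 or wildtype replicate 1) and Ech1 from -0.034 to 0.174 (lowest without wildtype replicate 2).

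The pathway lists held 8 called genes, against 4 with median-of-ratios scaling, 2 with no filter, 3 with the Ensembl row, 3 with limma-voom and 1 to 6 with a replicate left out. Acot6, Acot12 and Vnn1 among the 8 passed the filter through their knockout level alone. The numbers of tested genes per list are given above, and the share called over all tested genes was 7.67%. Over all genes 887 were called, against 518 with limma-voom and 455 to 849 with a replicate left out, the lowest counts being 474 without knockout replicate 1 and 455 without knockout replicate 2. With median-of-ratios scaling 646 were called, of which 76.5% were higher in knockout, against 90.6%. Deviations of same-numbered samples from their group means were weakly correlated over all tested genes (0.092, 0.038 and -0.018). This cannot exclude a pairing that acts on some of the genes. The replicate block gave 775 called genes and 7 in the lists. The ratio of Acaa1b to Acaa1a stayed higher in knockout under each alternative, by 0.712 to 0.996 on the log2 scale with a replicate left out, and that of the Scp2 rows by 0.25 to 0.40. The Scp2 rows were split after their values were seen, so the range of their ratio does not count as support. With 3 libraries a group, the 95% intervals of the 8 genes that did not pass have upper ends of 0.08 to 0.95 on the log2 scale.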
